A study of Rattus norvegicus with 418 samples.

Results

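The liver transcriptome of rats 24 h after thioacetamide at 50 mg/kg was compared with that of rats given only the vehicle and killed at 24 h. The groups were chosen by the labels of compound, dose and time, which gave 4 rats at 50 mg/kg and 4 vehicle rats (0 mg/kg), or 8 of the 46 thioacetamide arrays. The series profiled the livers of rats given 1 of 8 liver toxicants, with 1 microarray and 1 necrosis score per rat. All rats compared here were male F344/N animals of 10 to 12 weeks, fasted for 12 to 18 h beforehand and dosed by gavage with corn oil as the vehicle, and RNA came from frozen tissue of the left lateral liver lobe. Rats given 15 or 150 mg/kg and killed at 24 h, and rats given 50 mg/kg or vehicle and killed at 48 h (4 rats in each group), were used to place the 50 mg/kg response by dose and by time. Each array gave a signal for 14217 genes, and changes were tested on the scale of log2(signal + 16), on which a change of 1 is a doubling and small signals move less than their ratio.

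Thioacetamide is harmless until liver enzymes oxidise its sulfur, a step carried out mainly by the cytochrome P450 Cyp2e1 and by flavin-containing monooxygenases. The oxidised product binds to proteins and lipids of the hepatocytes that formed it, and because those enzymes are richest around the central vein, cell death is centred there. In the classical course of such an injury, dead hepatocytes are cleared by phagocytes that enter from the blood, and the surviving hepatocytes then leave quiescence and divide.

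All 4 rats at 50 mg/kg had necrosis, with scores of 3, 3, 3 and 4 (mean 3.25), whereas all 4 vehicle rats scored 0. The difference had a p of 0.0286 in an exact two-sided permutation test, the smallest that 4 rats against 4 can give. The mean score was 0.75 at 15 mg/kg and 4 at 150 mg/kg at 24 h, and 1.25 at 48 h after 50 mg/kg.

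The labelled tissue was borne out by its defining transcripts. Hepatocyte markers gave high signals in both groups, with a sum over 12 genes (albumin, apolipoproteins, transthyretin and other plasma proteins) of 605447 to 738682 in vehicle rats and of 407849 to 487774 in rats at 50 mg/kg. In liver pieces, fewer cells of a type and less RNA per cell cannot be told apart, and this holds for every transcript described here. Arrays of a group resembled each other closely (Pearson's r across genes at least 0.96 among vehicle rats and at least 0.973 among rats at 50 mg/kg). All vehicle arrays were hybridised on 1 day and all 50 mg/kg arrays on another, so that dose and day cannot be told apart in the comparison with vehicle. The 50 and 150 mg/kg arrays of 24 h shared a day.

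At 50 mg/kg, 6618 of 14217 genes differed from vehicle at an adjusted p under 0.05 (limma, Benjamini-Hochberg over all genes). Of all genes, 4018 rose (28.3%) and 2600 fell (18.3%), and these shares are the background against which the gene lists below are read. Changes of at least 2-fold were called for 1553 rises (10.9%) and 1012 falls (7.12%), and the 4 dosed rats lay wholly above the vehicle rats for 3680 genes (25.9%) and wholly below them for 2423 (17%), called or not. The median change over all genes was 0.056. When each array was instead centred on its own median, that median moved to -0.19 and the share of calls that were rises moved from 60.7% to 41.5%, and under quantile normalization it was 51.8%, so that modest changes have a direction only relative to a chosen scaling. With all arrays of the series in 1 fit, 5698 genes were called, and 4128 when hybridisation day was added to that fit as a term. The median standard error was 0.201 as reported, 0.253 with all arrays and 0.392 with all arrays and day. Values given below with day as a term come from that last fit, which differs from the reported one in both respects.

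The steepest rises were of secreted and cell surface genes of injury and inflammation. Ccl7, which attracts monocytes, had signals of 12.4, 25.0, 4.63 and 74.5 in the vehicle rats and of 3593, 5012, 4414 and 4831 at 50 mg/kg, a log2 change of 6.85 ± 0.39 (± standard error, here and below; n = 4 rats per group; adjusted p 5.0e-18). Ccl2, the main monocyte attractant of injured tissue, went from 76.3, 199, 162 and 58.0 to 11008, 13681, 11937 and 12898 (6.60 ± 0.38). No vehicle rat came near a dosed rat for either chemokine. Tubb6, a tubulin of low abundance in resting hepatocytes, rose by 5.64 ± 0.43, Spp1 (osteopontin, a matrix and macrophage glycoprotein) by 5.51 ± 0.32, the scavenger receptor gene Olr1 by 5.49 ± 0.43 and Ch25h, which makes the immune oxysterol 25-hydroxycholesterol, by 5.30 ± 0.35. Other genes among the 20 largest rises were the clock repressor Bhlhe41 (5.20), the macrophage and adipocyte lipid carrier Fabp4 (4.71), the adhesion receptor Pvr (4.61), the ficolin Fcnb (4.55), the small GTPase gene Rnd1 (4.50) and the glutathione transferase Gstm3 (4.41).

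The steepest falls were of metabolic genes of the hepatocyte. Scd, the desaturase that makes oleate, had signals of 47670.2, 42882, 30088 and 47912 in vehicle rats and of 287, 249, 1155 and 179 at 50 mg/kg, a change of -6.82 ± 0.54 (adjusted p 4.1e-14). Cyp7a1, which catalyses the first step from cholesterol to bile acids, went from 10239.8, 10071, 8887 and 8599.9 to 95.5, 139, 145 and 49.4 (-6.34 ± 0.30, adjusted p 7.1e-20). The highest dosed rat stayed far below the lowest vehicle rat for both. Also among the 20 largest falls were the lipid droplet gene Pnpla3 (-5.62), liver pyruvate kinase Pklr (-5.04), the vasopressin receptor Avpr1a (-4.78), Bhmt, which remethylates homocysteine with betaine (-4.68), the fructose transporter Slc2a5 (-4.48), Ppp1r3b, which brings phosphatase to glycogen (-4.40), Bbox1, the last enzyme of carnitine synthesis (-4.13), the aromatic amino acid decarboxylase Ddc (-4.12) and the glucokinase regulator Gckr (-3.89).

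**Figure D1:**
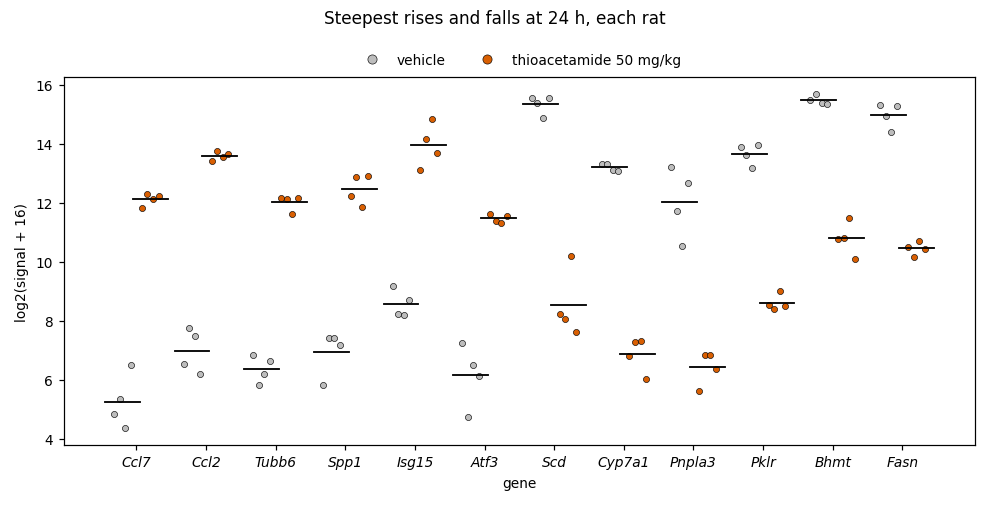
Signal of 6 genes with steep rises and 6 with steep falls in each vehicle rat and each rat at 50 mg/kg at 24 h (y axis, log2(signal + 16); 1 point per rat, bars at the group means). For all 12 genes the 4 points of one group lie wholly on one side of the other group, and the mean change runs from -6.82 for Scd to 6.85 for Ccl7.

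Inflammatory mediators rose broadly but not uniformly: 17 of 24 cytokine and chemokine genes rose and 1 fell, with a median change of 1.53. The macrophage chemokines Ccl3 and Ccl4 rose by 4.85 ± 0.30 and 4.69 ± 0.27, and the neutrophil attractants Cxcl2 and Cxcl1 by 4.55 ± 0.45 and 3.54 ± 0.49. The antagonist Il1rn, which blocks the interleukin 1 receptor, rose by 4.38 ± 0.41. Cxcl12, a chemokine made by resident stromal and endothelial cells, was the member that fell, from 9913, 9609.9, 11429.7 and 11536 to 1505, 2003, 2953 and 1360.1 (-2.49 ± 0.14), and its groups did not overlap. Cx3cl1, a membrane-bound chemokine, was not called (0.38 ± 0.47, adjusted p 0.55).

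Immediate early genes, transcription factors and regulators that cells switch on within minutes of a stimulus, were still high at 24 h: 15 of 18 rose, none fell and the median change was 2.48. Atf3, a stress-induced repressor, went from 137, 10.7, 75.2 and 54.6 to 3128, 2667, 2544 and 3003, a change of 5.31 ± 0.42 with no overlap. Fos, a subunit of the AP-1 factor, rose by 4.61 ± 0.45, Maff by 4.54 ± 0.45, Klf6 by 3.43 ± 0.25, Myc, a driver of growth, by 3.37 ± 0.24 and Egr2 by 3.28 ± 0.23. Gadd45b, a stress gene of the same kind, rose by 4.26 ± 0.35. Fosl2, another AP-1 subunit, was not called (0.34 ± 0.45, adjusted p 0.59).

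Markers of cells that enter an injured liver moved beside these mediators, and their part in any one change was not tested. The summed signal of 10 genes of recruited macrophages was 5076 to 6294 in vehicle rats and 41453 to 53360 at 50 mg/kg, and 8 of the 10 rose (median 3.14). The integrin Itgax went from 61.4, 15.3, 34.8 and 46 to 1555, 1706, 1549 and 2039 (5.03 ± 0.33), and the glycoprotein gene Gpnmb rose by 4.37 ± 0.30, galectin 3 (Lgals3) by 4.22 ± 0.30 and the macrophage elastase Mmp12 by 2.79 ± 0.24. The vehicle and dosed groups did not overlap for these genes, but with day as a term Mmp12 was not called (adjusted p 0.0617). Of 9 Kupffer cell and macrophage markers, 4 rose and 1 fell (2 and 1 with day as a term), with a median change of 0.179. Their summed signals overlapped, at 13373 to 15522 in vehicle rats and 12678 to 18075 at 50 mg/kg. The one that fell was Clec4f, the most specific marker of resident Kupffer cells, by 0.94 on the log2 scale (3430.5, 3379, 2951 and 2846 against 951, 1653, 2754 and 1609, no overlap). The general macrophage lysosomal marker Cd68 rose by 1.35 ± 0.15, and Cd163, Cd5l and C1qb were also called higher.

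Neutrophil markers rose in 4 of 8 cases, among them the calcium-binding alarmins S100a9 (3.95 ± 0.26) and S100a8 (4.04 ± 0.43), the decoy receptor Il1r2 (3.35 ± 0.42) and the growth factor receptor Csf3r (1.94 ± 0.33), and their sum was 361 to 664 in vehicle rats and 3017 to 6338 at 50 mg/kg. Lymphocyte markers had sums of 882 to 1160 and 1931 to 3316, and 6 of 13 rose, namely the cytotoxic genes Gzmb (2.39 ± 0.40) and Prf1 (2.14 ± 0.33), the coreceptor Cd8a (2.40 ± 0.46), Nkg7 of cytotoxic granules (1.1 ± 0.24) and the other 2 by less. With day as a term 2 of the 13 were called higher, and Cd8a, Nkg7 and Csf3r were not called. The T cell receptor subunit gene Cd3e (-0.56 ± 0.51, adjusted p 0.40) and the B cell gene Ms4a1 (1.2 ± 0.54, adjusted p 0.0678) were not called. Sums of stellate cell and matrix genes were 11038 to 14418 against 15400 to 20632, and those of sinusoidal endothelium were 9977 to 12149 against 13190 to 17749. Both lists were mixed: 6 of 15 stellate and matrix genes rose and 2 fell (median 0.249), and 3 of 9 endothelial genes rose and 2 fell (median 0.027). Within the stellate list the intermediate filament gene Vim rose by 2.63 ± 0.19, the basement membrane collagen Col4a1 by 1.61 ± 0.14 and the smooth muscle actin Acta2 by 1.33 ± 0.22, whereas the fibrillar collagen Col3a1 fell by 0.72 and Lrat, the vitamin A esterifying enzyme of quiescent stellate cells, fell by 1.03 on the log2 scale and Col1a1 was not called (-0.41 ± 0.31, adjusted p 0.31). The fit with day as a term called 3 of the 15 higher and 1 lower, without Acta2 and Lrat. Cholangiocyte markers had sums of 2420 to 2906 and 2510 to 3182, and erythroid markers of 10950 to 13714 and 11197 to 22126.

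Genes of plasminogen activation and matrix breakdown, with proteases and their inhibitors counted together, rose in 14 of 16 cases (9 with day as a term). None fell, and the median was 1.94. Timp1, the inhibitor of matrix metalloproteases, went from 142, 245, 567 and 189.8 to 4366, 4969.9, 4175 and 5364 (4.15 ± 0.28). The plasminogen activators Plau (urokinase) and Plat (tissue type) rose by 2.87 ± 0.21 and 2.09 ± 0.20, and the protease Adamts1 by 1.88 ± 0.19. Annexins and S100 proteins, which bind calcium and membranes, rose in 10 of 14 cases and fell in 1, with S100a10 at 3.90 ± 0.30, S100a11 at 3.37 ± 0.23, Anxa1 at 1.86 ± 0.16 and Anxa5 at 1.47 ± 0.10. Cytoskeletal genes rose in 10 of 12 cases, including tropomyosin Tpm4 (2.17 ± 0.15), Tubb5 (1.95 ± 0.14) and Krt18, a keratin of hepatocytes (2.23 ± 0.18). The member of the annexin list that fell, Anxa6, was singled out after its values were seen (-0.80 ± 0.08).

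Interferon-induced genes rose together at 50 mg/kg: 15 of 18 rose, none fell and the median change was 2.30. Such genes are switched on by interferons through a response element in their promoters. Isg15, a ubiquitin-like modifier, had signals of 565, 287, 274 and 396 in vehicle rats and of 8786, 18382, 29091 and 13138 at 50 mg/kg (5.37 ± 0.44, adjusted p 1.1e-13). Rsad2 (viperin, an antiviral enzyme) went from 229, 329, 298 and 215 to 2340.3, 5173, 18760.4 and 3549 (4.26 ± 0.40), and Ifit3, which takes part in the sensing of viral RNA, from 148, 193, 118 and 131 to 1711, 2626, 6719.8 and 2637 (4.22 ± 0.31). The groups did not overlap for any of the 3, and rat 3 at 50 mg/kg was the highest for each. Usp18, which removes Isg15 from proteins and dampens interferon signalling, rose by 3.71 ± 0.29, the transcription factor Irf7 by 3.37 ± 0.32 and the dynamin-like GTPase gene Mx2 by 3.61 ± 0.39. The transcription factor gene Stat2 (0.26 ± 0.11, adjusted p 0.0586) and Ifit1 (-0.72 ± 0.33, adjusted p 0.0686) were not called.

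The promoters of 3 of these genes are shown because they carry the letters of the interferon-stimulated response element, which are GAAA, any 2 bases and GAAA again, on either strand. The sequences are the 150 bases before the gene start in RefSeq's rat assembly GRCr8, read in the direction of the gene, with the element in capitals. In Oas1a, an enzyme that activates RNA decay, 2 matches overlap. Rsad2 lies on the minus strand at chr6:48788121-48788270, Ifit3 on the plus strand at chr1:241527176-241527325 and Oas1a on the plus strand at chr12:41330316-41330465.
Rsad2: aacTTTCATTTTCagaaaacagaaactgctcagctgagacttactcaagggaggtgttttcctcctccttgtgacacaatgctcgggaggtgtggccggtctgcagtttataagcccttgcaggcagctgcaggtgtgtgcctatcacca
Ifit3: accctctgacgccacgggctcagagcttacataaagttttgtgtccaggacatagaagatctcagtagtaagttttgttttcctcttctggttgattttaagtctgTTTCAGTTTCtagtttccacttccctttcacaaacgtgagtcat
Oas1a: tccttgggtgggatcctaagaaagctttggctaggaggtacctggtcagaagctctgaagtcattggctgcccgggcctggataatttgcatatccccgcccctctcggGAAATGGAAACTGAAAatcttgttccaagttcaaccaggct
Of the 18 listed genes, 13 had a promoter entry, and 7 of the 13 (Gbp2, Ifit3, Irf7, Isg20, Oas1a, Rsad2 and Tap1) held the element in the 250 bases before the start, against 3.41% of all promoters in the RefSeq table. A match describes these letters and not binding. No entry was matched for Mx2, Ifit1, Ifit2, Isg15 and Usp18.

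Isg15 and several other interferon genes had their highest signals at the middle dose. Isg15 averaged (geometric mean signal) 1700.0 at 15 mg/kg, 15760.0 at 50 mg/kg and 3726 at 150 mg/kg, and the difference of 150 from 50 mg/kg was -2.08 ± 0.44 (adjusted p 4.2e-04). Signals were 492, 4513, 6887 and 529 at 15 mg/kg and 3039, 4528, 2956 and 4736 at 150 mg/kg. Every rat of both groups was below the lowest rat at 50 mg/kg, and at 15 mg/kg rats 2 and 3 were high and rats 1 and 4 near vehicle. Of the 18 genes, 10 were lower at 150 than at 50 mg/kg and none higher, with Mx2 at -2.02 ± 0.39 and Rsad2 at -1.44 ± 0.40. Without rat 3 at 50 mg/kg, 6 of the 18 were lower and Rsad2 differed by -0.84 (adjusted p 0.117). Over all genes, 9.39% were higher and 11.5% lower in that comparison. Ifit3 (-0.39 ± 0.31, adjusted p 0.45) and Usp18 (-0.62 ± 0.29, adjusted p 0.13) were not called between the doses.

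At 48 h after 50 mg/kg these genes were closer to vehicle. Rsad2 signals were 368, 370.2, 419 and 378 in the 48 h vehicle rats and 221, 193, 231 and 311 in the dosed rats, and its change at 24 h exceeded that at 48 h by 4.92 ± 0.57 (adjusted p 1.7e-08). The difference between times was 4.29 ± 0.63 for Isg15, 4.21 ± 0.55 for Mx2, 4.08 ± 0.43 for Ifit3 and 3.32 ± 0.41 for Usp18. Of the 18 genes, 15 had a called difference in that direction and none in the other, beside 8.45% and 11.3% of all genes with a more positive or more negative change at 24 h.

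**Figure D2:**
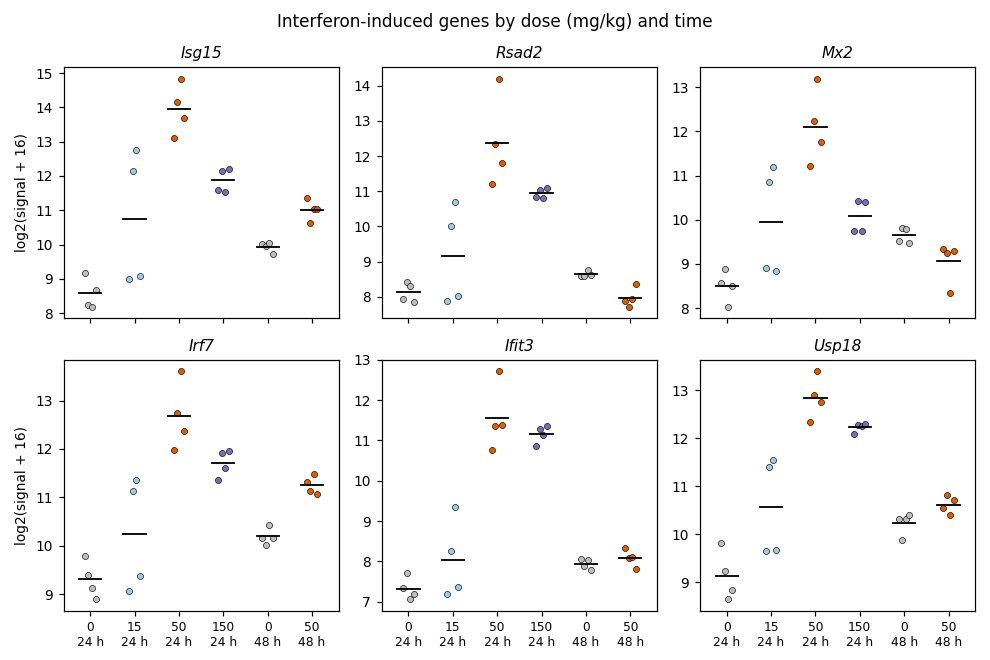
Signal of 6 interferon-induced genes in each rat (y axis, log2(signal + 16); 1 point per rat, bars at the group means) for vehicle, 15, 50 and 150 mg/kg at 24 h and for vehicle and 50 mg/kg at 48 h. The mean at 50 mg/kg and 24 h is the highest of each gene, with Isg15 differing by -2.08 at 150 mg/kg and the dosed rats of 48 h closer to their vehicle rats.

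Ribosome biogenesis genes rose without exception: all 27 were called higher, with a median of 1.49 and no member falling. These genes make, modify and assemble ribosomal RNA in the nucleolus, and are raised in hepatocytes that prepare to grow. Nop56, a core protein of the RNA-methylating particles, went from 998, 1054, 786 and 717 to 5216, 4873, 3509.9 and 5326 (2.39 ± 0.16), with no overlap. Fbl (fibrillarin, the methyltransferase of those particles) rose by 1.81 ± 0.12, Ebna1bp2 by 1.87 ± 0.14, Nhp2 by 1.80 ± 0.12 and Wdr74 by 1.66 ± 0.13. All 27 were also called when arrays were centred on their medians.

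Genes of DNA replication rose in 19 of 22 cases, with none falling and a median of 1.54. Pcna, the sliding clamp of DNA polymerases, went from 1777, 1697, 1458 and 1581 to 5254, 5233, 4117 and 5344 (1.60 ± 0.12, adjusted p 3.3e-15). Ccnd1, the cyclin that carries cells out of quiescence, rose by 2.65 ± 0.32, the helicase subunits Mcm2 and Mcm4 by 2.32 ± 0.25 and 1.75 ± 0.23, and the ribonucleotide reductase subunit Rrm1 by 1.38 ± 0.17. No vehicle rat reached a dosed rat for these genes. Thymidine kinase Tk1 (0.36 ± 0.25, adjusted p 0.26) and the polymerase subunit Pola1 (0.54 ± 0.27, adjusted p 0.10) were not called.

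Mitosis genes rose in 14 of 22 cases, none fell and the median was 1.22. Ccna2, a cyclin of S phase and mitosis, went from 33.4, 2.03, 3.49 and 1.80 to 177, 202, 112 and 164 (2.90 ± 0.43), Mki67, the proliferation marker Ki-67, rose by 2.57 ± 0.32, Cdk1, the kinase that drives entry into mitosis, by 1.89 ± 0.43 and Prc1, a protein of the central spindle, by 2.52 ± 0.40. Members not called included Ccnb1 (0.81 ± 0.37, adjusted p 0.0663), Plk1 (0.68 ± 0.44, adjusted p 0.22) and Birc5 (-0.03 ± 0.35, adjusted p 0.96). With day as a term 4 of the 22 were called, and Cdk1 was not (adjusted p 0.775).

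Promoters of 2 helicase subunits are shown because their genes moved with this list and hold an E2F element, searched as TTTGGCGC or TTTCCCGC on either strand. They are printed as above, 150 bases before the start in GRCr8, with the element in capitals. Mcm5 lies on the plus strand at chr19:13488663-13488812 and Mcm6 on the minus strand at chr13:42404353-42404502.
Mcm5: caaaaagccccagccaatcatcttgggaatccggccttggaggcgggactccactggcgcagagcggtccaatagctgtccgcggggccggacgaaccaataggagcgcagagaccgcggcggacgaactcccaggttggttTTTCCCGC
Mcm6: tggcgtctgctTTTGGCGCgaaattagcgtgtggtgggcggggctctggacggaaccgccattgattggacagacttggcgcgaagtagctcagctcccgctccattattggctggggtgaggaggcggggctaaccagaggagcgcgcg
E2F factors release the genes of S phase once cyclin D has acted. The element was present in 6 of 18 listed genes with a promoter entry (Gins1, Mcm5, Mcm6, Mcm7, Pola1 and Tyms), against 1.21% of all promoters in that table. Mcm5 rose by 1.47 ± 0.25 and Mcm6 by 3.04 ± 0.42, and these 2 genes were chosen for their promoters after values were seen; Mcm5 was not called with day as a term.

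The cell cycle genes were far from their highest point at 24 h. At 48 h after the same dose Ccna2 had signals of 0.899, 1.07, 0.984 and 17.0 in vehicle rats and 2357, 2592, 2309.6 and 3112 in dosed rats, and its change at 24 h was below that at 48 h by 4.11 on the log2 scale (-4.11 ± 0.61, adjusted p 2.5e-06). The difference was -3.87 ± 0.45 for Mki67, -3.53 ± 0.61 for Cdk1, -3.53 ± 0.40 for Cdc20, an activator of anaphase, and -4.33 ± 0.62 for the kinetochore gene Spc25. Of the mitosis list, 21 of 22 had a called difference in this direction and none in the other, and of the DNA replication list 16 of 22 and none. The dosed rats of 48 h lay above the dosed rats of 24 h for Ccna2 throughout. Between 150 and 50 mg/kg at 24 h, 1 member of each list was called higher and none lower.

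**Figure D3:**
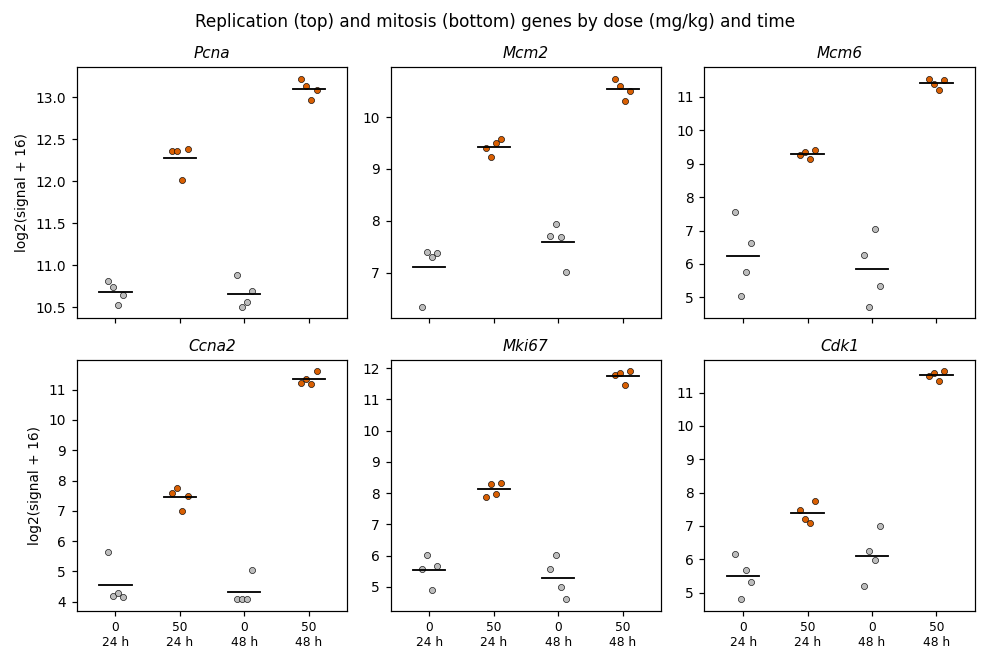
Signal of 3 replication genes and 3 mitosis genes in each rat (y axis, log2(signal + 16); 1 point per rat, bars at the group means) for vehicle and 50 mg/kg at 24 h and at 48 h. Both kinds of gene are raised at 24 h and higher again at 48 h, with a difference between the changes of -4.11 for Ccna2 and of -0.84 for Pcna.

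Targets of p53, the factor that stops or kills cells with damaged DNA, rose in 12 of 16 cases and fell in 3 (median 1.51). Cdkn1a (p21), an inhibitor of cyclin-dependent kinases, went from 716, 1613, 522 and 666 to 7951, 6965, 6121 and 7426 (3.13 ± 0.31). Ccng1 rose by 2.40 ± 0.14, Mdm2, which destroys p53, by 2.17 ± 0.18, Phlda3, an inhibitor of Akt, by 2.25 ± 0.20 and the nuclease gene Aen by 1.82 ± 0.15. The 3 that fell were Sesn1 (-1.45), Perp (-0.73) and the cell death gene Bbc3 (-0.41), named here for that, and Sesn1 was not called with day as a term. Among 11 genes of the Bcl2 family, 5 rose (3 with day as a term) and 1 fell. The survival genes Bcl2a1, which leukocytes express, and Mcl1 rose by 4.41 ± 0.32 and 1.40 ± 0.08. The killer genes Bid and Bad were also called higher, whereas the killer gene Bmf fell by 2.59 on the log2 scale.

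Stress programmes of the hepatocyte responded unequally. Targets of NRF2, the sensor of electrophiles and oxidants, rose in 8 of 17 cases and fell in 3, with a median of 0.27. Hmox1 (heme oxygenase) went from 732, 589, 667 and 555 to 3048, 3003, 3215 and 3775 (2.33 ± 0.17), and Srxn1 (sulfiredoxin), the aldo-keto reductase Akr1b8 and Txnrd1 (thioredoxin reductase) rose by 2.35 ± 0.22, 2.70 ± 0.25 and 0.96 ± 0.10. Gclc, the rate-limiting enzyme of glutathione synthesis (0.21 ± 0.13, adjusted p 0.19), and the quinone reductase Nqo1 (-0.25 ± 0.18, adjusted p 0.27) were not called. The fit with day called 4 of the 17 higher, without Txnrd1. The NADPH-producing malic enzyme Me1 fell by 3.26 on the log2 scale.

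Gstm3, which is not in that list, was also followed across the doses. Its signals were 87.7, 131, 104 and 71.7 in vehicle rats, 349, 3916, 2656 and 1966 at 15 mg/kg, 2833, 2416, 2479 and 1911 at 50 mg/kg and 1646, 1948, 1058 and 2651 at 150 mg/kg. It was already raised at 15 mg/kg, with no called difference between 50 and 15 mg/kg (0.53 ± 0.36, adjusted p 0.27) or between 150 and 50 mg/kg (-0.46 ± 0.36, adjusted p 0.45). The first of these rests on single rats at 15 mg/kg: it was -0.20 without rat 1 and 0.95 without rat 2 (adjusted p 0.0309).

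Heat shock chaperones, which refold damaged cytosolic proteins, rose in 11 of 14 cases and none fell (median 0.712). Hspa1a, the inducible Hsp70, rose by 2.51 ± 0.25 and its partner Hspb8 by 1.52 ± 0.13. Only 5 of the 14 were called with day as a term, and Hspa1a was not (2.26 ± 1.16, adjusted p 0.136). Chaperones of the endoplasmic reticulum divided, with 5 higher and 8 lower of 18, and quantile normalization gave 8 and 5, centring on the median 2 and 12 and day as a term 3 and 2: Dnajb9 rose by 1.04 ± 0.13 and Pdia4, a protein disulfide isomerase, fell by 0.91 on the log2 scale. Hspa5 (BiP), the master chaperone of that compartment, was not called (0.04 ± 0.08, adjusted p 0.74).

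Targets of Atf4, which restores amino acid supply under stress, rose in 12 of 19 cases and fell in 4. Ppp1r15a, which restarts translation, rose by 2.59 ± 0.18, the amino acid transporter chain Slc3a2 by 1.75 ± 0.15 and Ddit3 (Chop) by 1.27 ± 0.12, whereas Atf5 fell by 1.34 on the log2 scale. With day as a term 4 were called higher and 2 lower, and Ddit3 was not called. The zinc-binding metallothionein Mt2A went from 762, 2301, 3169 and 628 to 20979.6, 26293, 19265 and 23259 (4.01 ± 0.39) and Mt1 rose by 1.61 ± 0.49, the latter not called with day as a term. Subunits of the proteasome rose in 25 of 30 cases by small amounts (median 0.358), with Psmd13 at 0.98 ± 0.10. That count was 13 with arrays centred on their medians and 15 with day as a term.

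**Figure D4:**
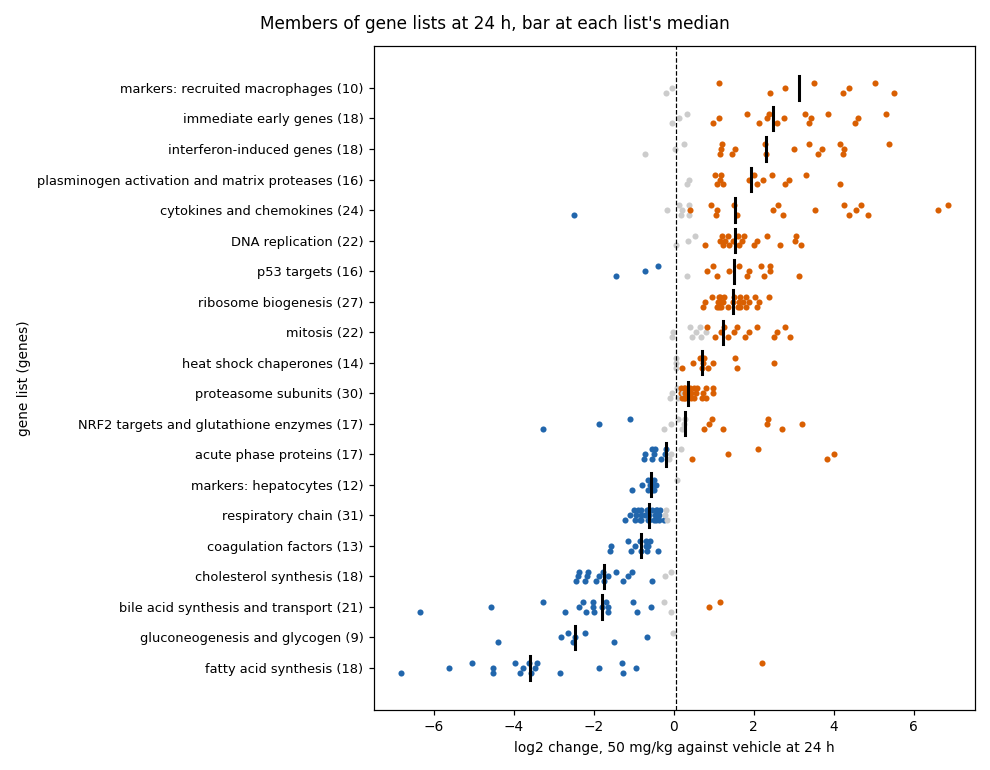
Change at 24 h between 50 mg/kg and vehicle (x axis, log2 change; 1 dot per gene) of the members of 20 gene lists (y axis, list names with the number of genes), in colour where the adjusted p was under 0.05 and grey otherwise, with a bar at each list's median. The dashed line is the median of all genes at 0.056, and list medians run from -3.60 for fatty acid synthesis to 3.14 for recruited macrophage markers.

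Synthesis of fatty acids was the most deeply lowered pathway examined: 17 of 18 genes fell, 1 rose and the median was -3.60. Fasn, the synthase that builds palmitate, went from 40823, 31086, 21583 and 39457 to 1446, 1143, 1637 and 1361 (-4.53 ± 0.30, adjusted p 1.8e-16). Acly, which supplies cytosolic acetyl-CoA, fell to -3.76 ± 0.19, the desaturase Fads1 to -4.52 ± 0.30, Acss2, which activates acetate, to -3.85 ± 0.27 and the lipogenic regulator Thrsp to -3.98 ± 0.26 relative to vehicle. No dosed rat reached a vehicle rat for any of them. The exception was Scd2, a desaturase isoform best known from brain and other tissues, with signals of 135, 131, 227 and 137 in vehicle rats and 808, 849.8, 569 and 899 at 50 mg/kg (2.21 ± 0.20), opposite in direction to Scd and singled out for that.

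Cholesterol synthesis fell in 16 of 18 cases with none rising (median -1.75). Nsdhl changed by -1.88 ± 0.12, Ebp by -2.39 ± 0.15, Sc5d by -2.23 ± 0.15 and Lss (lanosterol synthase) by -2.16 ± 0.18, and Insig1, which holds the sterol sensor in the endoplasmic reticulum, by -2.44 ± 0.20. The falls of both pathways were smaller at 48 h: the change at 24 h was the more negative for 15 of the 18 fatty acid genes and 13 of the 18 cholesterol genes, with Elovl6, an elongase, at -3.38 ± 0.54 between times and at -3.47 at 24 h alone.

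Bile acid synthesis and transport fell in 17 of 21 cases and rose in 2 (median -1.80). Beside Cyp7a1, the sterol hydroxylase Cyp8b1, which sets the share of cholic acid, went from 8842, 11997, 16140.5 and 12132 to 412, 642, 636 and 336 (-4.58 ± 0.19). Slc10a1, the main uptake carrier of bile salts, changed by -2.73 ± 0.16, the anion carrier Slco1a1 by -2.01 ± 0.13 and the ligase Slc27a5 by -2.02 ± 0.14. Fatty acid oxidation fell in 16 of 21 cases and rose in 1, led by the peroxisomal enzyme Ehhadh (-3.39 ± 0.18) and the ketone body enzyme Bdh1 (-3.24 ± 0.19). Its regulator Ppara was not called (0.52 ± 0.42, adjusted p 0.34).

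Enzymes that oxidise thioacetamide, and their electron donors, were lowered in 6 of 7 cases. Fmo1, a flavin-containing monooxygenase, went from 2975, 5746, 5465 and 4642 to 414, 419.7, 209 and 264 (-3.80 ± 0.34), and Cyb5r3, the reductase of cytochrome b5, changed by -2.54 ± 0.14 and Fmo4 by -1.80 ± 0.18. Cyp2e1 changed far less, from 41826, 49123, 44604 and 48372 to 28756, 30029.6, 28756 and 26656 (-0.69 ± 0.12, adjusted p 2.6e-06), without overlap, and under quantile normalization its change was -0.15 (adjusted p 0.375). The member not called was Por, the reductase of all microsomal P450s (0.01 ± 0.20, adjusted p 0.98). At 48 h the fall of Cyp2e1 was larger, and its change at 24 h was higher by 1.38 ± 0.16.

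Of 17 other hepatic P450 genes, 14 fell and 1 rose. Cyp4f4, Cyp2a2 and Cyp2j3 changed by -2.13 ± 0.14, -2.12 ± 0.12 and -1.83 ± 0.13. The exception was Cyp2c12, a form known in rats for its female pattern of expression, with signals of 876, 1118, 1048 and 452 in the vehicle males and 7779.7, 9512, 12760.5 and 8624 at 50 mg/kg (3.50 ± 0.50). Genes of the pericentral zone, where necrosis is centred in this type of injury, fell in 9 of 13 cases with none rising, among them Cyp1a2 (-2.09 ± 0.17), Oat, which handles ornithine (-2.78 ± 0.26), and the Wnt target Tbx3 (-2.08 ± 0.32). Axin2, another Wnt target, was not called (-0.31 ± 0.18, adjusted p 0.17). Nr1i3 (CAR), a receptor that controls detoxification genes, changed by -1.98 ± 0.24.

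Periportal enzymes also fell: 16 of 20 genes of amino acid breakdown and the urea cycle were lower (10 with day as a term) and none higher. Kynu, of tryptophan breakdown, went from 9156, 12045, 9335 and 10938 to 839, 958, 1701 and 675 (-3.37 ± 0.18), Gls2, the liver glutaminase, changed by -2.83 ± 0.19 and Otc, of the urea cycle, by -2.11 ± 0.15. Genes of gluconeogenesis and glycogen fell in 8 of 9 cases (median -2.47), with Pygl, the liver glycogen phosphorylase, at -2.66 ± 0.16 and Pc (pyruvate carboxylase) at -2.53 ± 0.17. The exception was Pck1, the rate-controlling enzyme of gluconeogenesis, with signals of 24376, 22584, 30816 and 25724 and 26623, 27918, 22139 and 24376 (-0.03 ± 0.12, adjusted p 0.87). At 48 h Pck1 was below its vehicle, and the change at 24 h was higher by 3.10 ± 0.17. Genes of glycolysis and of glucose and lactate transport, some of them abundant in normal liver, rose in 9 of 13 cases, with Slc16a3, a lactate exporter, at 3.74 ± 0.44 and Aldoa, the muscle aldolase, at 2.38 ± 0.14.

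The nuclear genes of the mitochondrial respiratory chain fell in 28 of 31 cases by modest amounts (median -0.626), with Ndufs3 of complex I at -1.09 ± 0.08 and Sdha of complex II at -0.94 ± 0.07. Between 23 and 31 of the 31 were called lower under the other scalings. All 13 coagulation factors and inhibitors fell (median -0.825), among them F10 (-1.58 ± 0.11), Plg (plasminogen, -1.14 ± 0.10) and Pros1 (protein S, -0.98 ± 0.08). Hepatocyte markers were lower by still less, in 11 of 12 cases with a median of -0.57, and under quantile normalization only 1 of the 12 was called lower. Rbp4, the retinol carrier, changed by -0.64 ± 0.08 and Apoa2 by -1.05 ± 0.13.

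Acute phase proteins, which hepatocytes secrete in response to interleukins, did not move as 1 group: 5 of 17 rose and 9 fell, while quantile normalization gave 11 and 2 and day as a term 4 and 2. A2m, the major acute phase protein of the rat, went from 119, 136, 759 and 206 to 6409.5, 4756, 1292 and 5975 (4.01 ± 0.52), the siderophore-binding Lcn2 rose by 3.84 ± 0.56 and Lbp, which binds bacterial lipopolysaccharide, by 1.35 ± 0.15. Crp, which is not a strong acute phase protein in rats, changed by -0.75 ± 0.12 and Itih3 by -0.73 ± 0.10.

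Among 12 transcription factors of the hepatocyte, 7 fell and 3 rose (4 and 1 with day as a term, where Esrrg was not called). Cebpa, which maintains the quiescent hepatocyte, went from 5900.0, 4553, 7406 and 6337 to 1237, 1589.8, 1988 and 1217 (-2.0 ± 0.15) and Cebpd, an inflammatory relative, rose by 1.79 ± 0.22. Esrrg and Foxa1 changed by -2.08 ± 0.27 and -1.44 ± 0.23. Of 11 genes of the growth hormone axis, 6 fell and 3 rose (5 and 1 with day as a term). The receptor Ghr (-1.21 ± 0.14), its product Igf1 (-0.76 ± 0.09) and Igfals, which keeps IGF1 in the circulation (-2.29 ± 0.35), were lower, whereas the stress-induced binding protein Igfbp1 rose by 2.57 ± 0.33 and the feedback inhibitors Cish and Socs3, which growth hormone and cytokines induce, by 1.84 ± 0.36 and 1.38 ± 0.29. Neither Igfbp1 (2.29 ± 1.30, adjusted p 0.187) nor Cish (0.17 ± 0.97, adjusted p 0.923) was called with day as a term. Among 14 growth factors and receptors, 7 rose (3 with day as a term) and 6 fell: the matrix proteins Ccn1 and Ccn2, targets of the Hippo pathway, rose by 3.03 ± 0.22 and 2.94 ± 0.36, while Egfr (-1.58 ± 0.22) and Vegfa (-1.04 ± 0.09) were lower, Egfr not being called with day as a term (adjusted p 0.0675).

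The clock genes Per1 (2.35 ± 0.44), Nr1d1 (1.49 ± 0.36) and Npas2 (-1.91 ± 0.36) were called among 14, of which 6 rose and 2 fell (3 and 1 with day as a term, where Nr1d1 was not called). Lysosomal genes rose in 7 of 15 cases and fell in 3. Those that rose included Lgmn (legumain, 1.75 ± 0.11) and Ctss (cathepsin S, 1.26 ± 0.11), both abundant in macrophages. The hour of killing was not given in the sources used here.

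Raising the dose from 50 to 150 mg/kg at 24 h changed fewer genes, 1335 higher (9.39%) and 1642 lower (11.5%), and the lists differed. Of the fatty acid synthesis genes, 2 of 18 were higher and 3 lower, of the chemokine list 4 of 24 were higher and 3 lower, and of the bile acid list 10 of 21 were lower and none higher. Cyp2c12 gave the most negative difference among genes also changed at 50 mg/kg: signals at 150 mg/kg were 1146, 1485, 184 and 653, a difference of -3.77 ± 0.50 (adjusted p 1.4e-07). At 15 mg/kg they were 1561, 10482, 8041 and 3795, and the rats at 15 mg/kg overlapped those at 50 mg/kg whereas the rats at 150 mg/kg overlapped the vehicle rats. Igfals (-2.92 ± 0.35), Inhbe, an activin subunit of the liver (-3.32 ± 0.22), Baat, which conjugates bile acids (-2.77 ± 0.22) and the iron regulator Hjv (-2.67 ± 0.29) were lower at the higher dose. Akr7a3, an aldehyde reductase, had signals of 1726, 1637, 1501 and 2244 in vehicle rats, 5385, 14684, 14198 and 17643 at 15 mg/kg, 3333, 2385, 4861 and 1959 at 50 mg/kg and 401, 574, 376 and 512 at 150 mg/kg. It was thus highest at the lowest dose and below every vehicle rat at the highest, with a difference of -2.0 ± 0.27 between 50 and 15 mg/kg and of -2.64 ± 0.27 between 150 and 50 mg/kg. Between 50 mg/kg and vehicle, Akr7a3 was not called with day as a term (0.51 ± 0.70, adjusted p 0.638).

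Of the 12 hepatocyte transcription factors, 8 were lower at 150 than at 50 mg/kg and none higher, with Esrrg at -1.83 ± 0.27 and Foxa1 at -1.06 ± 0.23. Hnf4a, the central factor of hepatocyte identity, was named after its values were seen: its signals were 13881, 11781, 12059.6 and 13096 in vehicle rats, 9043, 8623, 11378 and 8264 at 50 mg/kg and 5513, 6023, 1878 and 4312 at 150 mg/kg. All rats at 150 mg/kg were below all rats at 50 mg/kg, and the difference was -1.19 ± 0.17 (adjusted p 1.2e-06). Between 50 mg/kg and vehicle, Hnf4a was not called with day as a term (-0.15 ± 0.32, adjusted p 0.781).

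Genes higher at 150 mg/kg were led by the neuropeptide gene Npy (2.97 ± 0.29), the activin inhibitor Fst (2.18 ± 0.26), Fosb (2.10 ± 0.42), Ccn2 (1.96 ± 0.36), Gadd45b (1.95 ± 0.35) and the EGF receptor ligand Areg (1.88 ± 0.39). Npy signals were 216, 295, 243 and 223 in vehicle rats, 529, 556, 463 and 822 at 50 mg/kg and 6809.8, 3930.2, 5363 and 3227 at 150 mg/kg, with no overlap between the doses. Its change from vehicle to 50 mg/kg was not called with day as a term (1.14 ± 0.49, adjusted p 0.0703). Immediate early genes were higher at 150 mg/kg in 13 of 18 cases and lower in none. Stellate and matrix markers were higher in 10 of 15 cases, endothelial markers in 8 of 9 and Kupffer cell and macrophage markers in 7 of 9, with none of these lower.

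**Figure D5:**
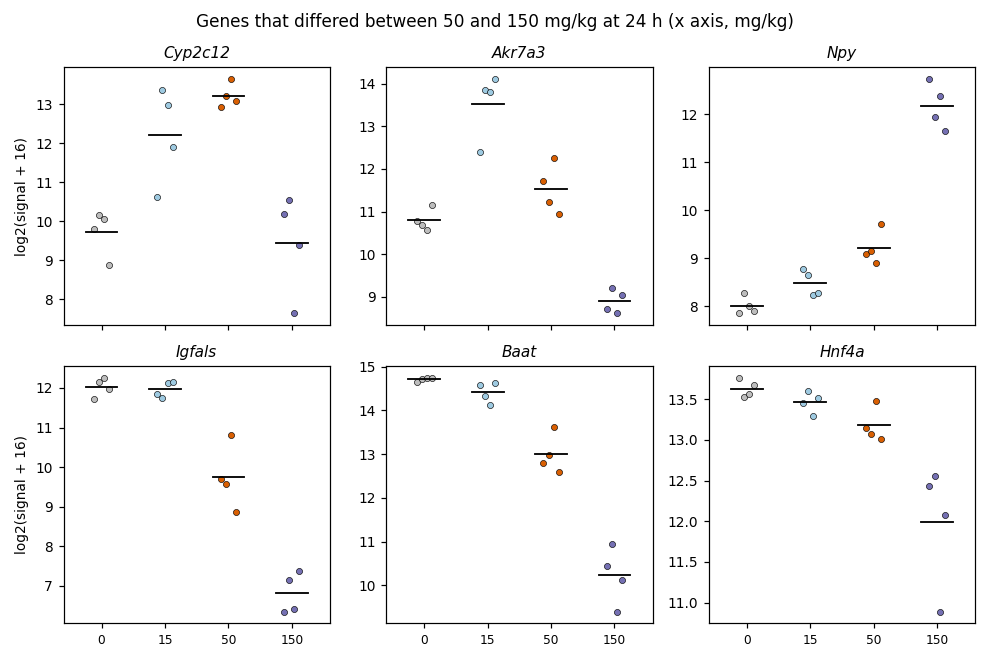
Signal of 6 genes that differed between 50 and 150 mg/kg at 24 h in each rat (y axis, log2(signal + 16); 1 point per rat, bars at the group means) for vehicle, 15, 50 and 150 mg/kg. Cyp2c12 is high at 50 mg/kg and lower at 150 mg/kg (-3.77), Akr7a3 is highest at 15 mg/kg, Igfals, Baat and Hnf4a are lowest at 150 mg/kg, and Npy is higher there by 2.97.

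Against 15 mg/kg at 24 h, 3293 genes were higher at 50 mg/kg (23.2%) and 2282 lower (16.1%). Of these calls 59.1% were higher, and 38.3% with arrays centred on their medians. The arrays of the 2 groups were hybridised on different days. Ccl2 signals at 15 mg/kg were 110.2, 239, 618 and 99.8, and the difference of 50 from 15 mg/kg was 5.81 ± 0.38 (adjusted p 5.2e-16). Ccl7 differed by 6.28 ± 0.39, Spp1 by 5.05 ± 0.32, A2m by 4.73 ± 0.52 and Mt2A by 4.42 ± 0.39. On the falling side Cyp7a1 differed by -5.85 ± 0.30 (signals of 10521, 5178, 3919 and 9402 at 15 mg/kg), Scd by -5.74 ± 0.54, Nrep by -4.81 ± 0.30 and Bhmt by -4.34 ± 0.23. For Ccl2 and Cyp7a1 every rat at 15 mg/kg lay on the vehicle side of every rat at 50 mg/kg.

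The change at 24 h differed from that at 48 h, after the same dose, for 1201 genes in the positive direction (8.45%) and 1600 in the negative (11.3%). Positive differences made up 42.9% of these calls, and 67.5% with arrays centred on their medians. Besides the interferon genes, the more positive changes at 24 h were led by Obp3, an odorant-binding protein of the rat (4.30 ± 0.32), Cxcl1 (3.95 ± 0.70), Igfbp1 (3.88 ± 0.47), Cxcl2 (3.60 ± 0.64), Maff (3.31 ± 0.63) and Ccl4 (3.29 ± 0.38). Cxcl1 signals at 48 h were 691, 208, 256 and 121 in vehicle rats and 98.6, 183, 346 and 212 in dosed rats, against 280.0, 303, 138 and 58.9 and 1884, 2155, 1859 and 2529 at 24 h. The chemokine list had 15 of 24 more positive changes at 24 h and 1 more negative, and the immediate early list 13 of 18 and none. Cyp7a1 (-3.98 ± 0.43) and Slc2a5 (-3.94 ± 0.54) were further below vehicle at 24 h than at 48 h.

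Several genes of matrix and of macrophages took another course. Of 10 recruited macrophage markers 3 had a more negative change at 24 h and 1 a more positive one; of 8 neutrophil markers 2 and of 13 lymphocyte markers 1 had a more positive change and none a more negative one. Spp1 signals at 48 h were 127, 106, 158 and 73.6 in vehicle rats and 19006, 19076, 19782 and 19301 in dosed rats, and its change at 24 h was the smaller (-1.72 ± 0.45, adjusted p 0.00409, or 0.426 with all arrays of the series in 1 fit). Trem2, a receptor of lipid-laden macrophages, was at its vehicle level at 24 h, with signals of 78.0, 24.1, 8.06 and 3.50 and 44.4, 25.8, 10.1 and 7.57 (-0.05 ± 0.40, adjusted p 0.94), and its change was -3.08 ± 0.56 below that of 48 h. Col1a1 showed the same order (-3.63 ± 0.44), and of 15 stellate and matrix markers 10 had a more negative change at 24 h and none a more positive one. Acute phase proteins (12 of 17) and coagulation factors (9 of 13) had the more positive change at 24 h, and none of either the more negative. Cyp1a2 (2.01 ± 0.24) and Slc27a5 (1.75 ± 0.20) were likewise lower at 48 h than at 24 h, relative to vehicle rats of the same time.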

How the data were processed

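The deposited values were MAS5 signals of single arrays that the authors gave on the log2 scale, with each array scaled to a 2% trimmed mean of 500; no source used here gives the version of MAS5. They were taken out of the log scale and analysed as log2(signal + 16), with no further normalization. The platform annotation gave 1 symbol to 20826 of 31099 probe sets, several to 436 and none to 9780, and 57 were controls. Where a gene had several probe sets (4525 of 14217 genes), the one brightest on average stood for it; 14167 genes were found in the reference table. Between 12.6% and 14.7% of probe sets had signals under 16 on the 8 arrays, and the number of arrays limits the precision.

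Samples were grouped by the labels of compound, dose and time, and no array was left out. All 46 thioacetamide arrays (12 groups) entered 1 model in limma (version 3.58.1 under R 4.3.3), with lmFit, contrasts.fit and eBayes, the latter with its trend option. That model gave 50 mg/kg against vehicle, 150 against 50 mg/kg, 50 against 15 mg/kg, and the change at 24 h minus that at 48 h. Genes were called at an adjusted p under 0.05 (Benjamini-Hochberg over all genes of a comparison). For the necrosis score an exact permutation test over rats was used. The fit was tested on simulated data with known changes. Promoter sequences were taken from RefSeq (assembly GRCr8) and matched by gene identifier.

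The members, the gene lists and the tests were chosen with earlier results of these data known. Genes are named by a rule. For 50 mg/kg against vehicle it takes, from called genes whose groups do not overlap, the 20 that rose most and the 20 that fell most, and from each list the called members with the lowest adjusted p, at most 5. For each other comparison it takes the 12 most positive and 12 most negative differences among genes also called against vehicle. The text names a part of these, and may name members not called. Anxa6, Bbc3, Perp, Sesn1, Scd2, Hnf4a, Mcm5, Mcm6, Cish, Socs3, Lrat and genes named only for their promoters lie outside the rule and were chosen after their values were seen. Alternatives were centring of each array on its median, quantile normalization, pseudocounts of 1 and 64, the 7108 brighter genes, the mean of all probe sets, only the groups compared, all arrays of the series in 1 fit, that fit with hybridisation day as a term, no trend, and leaving out each rat.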

Additional observations from a re-analysis of the deposited data

Results flagged for a closer look

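The values of each gene named against vehicle, and the necrosis scores, were examined for a stray rat in the 2 groups. Among 449 such sets of 4 values, 16 had 1 rat far from the other 3. In these, most of the range lay between that rat and its neighbour, beyond Dixon's 95% limit, where chance gives about 1 in 20 for a single set. The share of 16 in 449 was below that rate, so the sets listed are no more than chance alone would give. Necrosis scores are whole numbers, and a lone differing score always passes the limit. The sets come from the same 8 rats and are not independent. At 50 mg/kg, rat 3 was the stray animal in 6 of them: it was highest for Anxa6 (1201) and Tap1 (1969) and lowest for Gadd45b (887.4), Pcna (4117), Perp (1580) and Tubb6 (3145). Rat 4 alone had a necrosis score of 4 and was lowest for Cyp2a2 (4097), and rat 2 was lowest for Sesn1 (151.7). Among vehicle rats, rat 1 was highest for Ccna2 (33.4) and lowest for Mcm2 (65.2), Spp1 (40.3) and Lrat (337.1), rat 3 was highest for Scd2 (227.2) and lowest for Slc39a4 (1320.0), and rat 4 was highest for Bdh1 (4754). All signals are on the linear scale.

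The response to 50 mg/kg differed between 24 and 48 h, by the test of the difference itself, for each gene given here as its change at 24 h minus that at 48 h on the log2 scale. It was more positive at 24 h for the interferon-induced genes Rsad2 (4.92), Isg15 (4.29), Mx2 (4.21), Ifit3 (4.08) and Usp18 (3.32), for the chemokines Cxcl1 (3.95), Cxcl2 (3.60) and Ccl4 (3.29), and for Obp3 (4.30), Igfbp1 (3.88), Maff (3.31), Pck1 (3.10), Cyp1a2 (2.01), Slc27a5 (1.75) and Cyp2e1 (1.38). It was more negative for the cell cycle genes Spc25 (-4.33), Ccna2 (-4.11), Mki67 (-3.87), Cdk1 (-3.53), Cdc20 (-3.53) and Pcna (-0.84), for Cyp7a1 (-3.98), Slc2a5 (-3.94) and Elovl6 (-3.38), and for Col1a1 (-3.63), Trem2 (-3.08) and Spp1 (-1.72).

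Probe sets with no gene symbol carried signal too: 1531 of 9780 were called between 50 mg/kg and vehicle at 24 h, 759 higher and 772 lower. They were not used elsewhere.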

How the results depend on the processing

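The comparison with vehicle called 6618 genes, and leaving out each rat in turn gave 6161 to 6447 (3744 to 3938 rises and 2417 to 2529 falls). The same exercise gave 2171 to 2939 genes for 150 against 50 mg/kg (2977 with all rats), 4792 to 5751 for 50 against 15 mg/kg (5575) and 2537 to 2728 for the difference between times (2801). With all arrays in 1 fit, the comparison with vehicle called 5698 genes (3437 higher, 2261 lower). In that fit 150 against 50 mg/kg called 1662 genes (597 higher, 1065 lower) and the difference between times 1498 (590 and 908). With hybridisation day added as a term, the comparison with vehicle called 4128 genes (2358 higher), 150 against 50 mg/kg 1771 (650 higher) and the difference between times 1592 (641 and 951). For 50 against 15 mg/kg that fit could not be made, since no chain of groups links their days. Quantile normalization, centring, pseudocounts of 1 and 64, the brighter genes, the mean of all probe sets, only the groups compared and no trend kept each total within 1.5 times. By direction, centring gave 2052 more positive and 989 more negative differences between times and 2111 genes higher at 50 than at 15 mg/kg (1201, 1600 and 3293 as reported). Day as a random block was not run, because each thioacetamide group lies on 1 day. No paired analysis was possible because the labels give no number that pairs rats of different groups.

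Of 283 values named for genes in the text, the following changed sign, none of them called as reported. Under quantile normalization Pck1 was 0.39 and with arrays centred Hspa5 was -0.21, and both were then called. With arrays centred Gclc was -0.036 and Por -0.23. Trem2 was 0.13 with a pseudocount of 1, and Cd3e 0.15 and Tk1 -0.039 with the mean of probe sets. With day as a term Birc5 was 0.31, Cx3cl1 -0.24, Fosl2 -0.56, Nqo1 0.50 and Pck1 0.12. Leaving out 1 rat in turn gave -0.17 to 0.086 for Birc5, -0.35 to 0.41 for Trem2, -0.093 to 0.057 for Pck1, -0.22 to 0.19 for Por, -0.017 to 0.084 for Hspa5 and, between 50 and 15 mg/kg, -0.20 to 0.95 for Gstm3. The cause was not tested.

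In the fit of all arrays with day as a term, 27 named values lost their call. Among them were Cdk1, Hspa1a, Igfbp1, Mmp12, Cd8a, Egfr, Ahr, Kdr and Mtf1 against vehicle and Spp1 and Pcna between times. For Spp1 and Pcna the day term left the estimates as reported (-1.72 and -0.84). Spp1 was not called with all arrays in 1 fit without day either. Within thioacetamide, day and dose cannot be told apart in the comparison with vehicle. In another compound, 1 group had arrays on both days (2 on each). The difference between the 2 days was taken from the fit of all arrays with day as a term. It was called for 18 genes, with a median absolute value of 0.202 and a median standard error of 0.302. Other groups and days also enter that fit, so these values do not rest on that group alone. The precision is that of 4 rats per group (median standard error 0.201).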

Other observations

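Targets of the aryl hydrocarbon receptor, a sensor of planar aromatic compounds, were mostly not called: of 9 genes 2 fell and none rose, namely the receptor Ahr itself (-0.71 ± 0.22) and Cyp1a2. In zinc handling, the importer Slc39a4 was lower (-1.16 ± 0.15) and Mtf1, the zinc-sensing factor that controls metallothioneins, was higher (0.49 ± 0.10). Neither Ahr (adjusted p 0.069) nor Mtf1 (adjusted p 0.0513) was called with day as a term. Of 9 sinusoidal endothelial genes 3 rose and 2 fell, beside 28.3% and 18.3% of all genes. The scavenging receptors Fcgr2b (1.59 ± 0.10) and Lyve1 (0.87 ± 0.14) were higher and Kdr, the receptor for Vegfa, was lower (-0.73 ± 0.15). With day as a term 2 of the 9 were called higher and none lower, and Kdr was not called (adjusted p 0.115). Afp, the fetal form of albumin, was lower (-0.90 ± 0.13), and Krt7 of bile duct cells was not called (0.61 ± 0.50, adjusted p 0.35).

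On the first principal component of the thioacetamide arrays (41.3% of the variance), the vehicle rats of 24 h lay between -53.0 and -47.7 and the rats at 50 mg/kg at 42.4, 43.5, 30.9 and 52.6. The rats at 15 mg/kg were spread out, at -49.1, -20.8, -4.20 and -40.1 for rats 1 to 4, whose necrosis scores were 0, 1, 1 and 1. Those at 150 mg/kg lay between 63.6 and 71.4.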
